A study of Mus musculus with 10 samples.

Results

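The nuclear genes of respiratory complexes II to V were followed in ribosome-bound RNA of dopamine D2 receptor cells of the mouse striatum. Members were the gene rows with a symbol starting in Uqcr, Atp5 or Cox followed by 4 to 8, together with Sdha, Sdhb, Sdhc, Sdhd, Cyc1 and Cycs. The rule reads symbols and no measured value. Like the lists and role groups used below, it was chosen with earlier results of these data known. The members came to 49 of 32531 genes counted: 4 of complex II, 9 of complex III, cytochrome c, 18 of complex IV and 17 of complex V. No row with a pseudogene ending had to be left out. All 10 libraries were made from whole striatum of adult mice of line CP101 (Drd2-EGFP/Rpl10a), in which the ribosomal protein L10a carries EGFP in cells that use Drd2 regulatory sequences, so the control animals carry the transgene too. Mice had taken either cocaine or saline by intravenous self-administration with short access, and tagged polysomes were immunopurified (IP) with antibodies to EGFP. There were 3 saline IP libraries (numbers 1, 2 and 4), 5 cocaine IP libraries (numbers 1 to 5), 1 input library from a saline sample and 1 unbound library from a cocaine sample. The labels give medium spiny neurons as the cell type. A Drd2 promoter can also mark cholinergic interneurons, and the labels do not say whether a library stands for 1 animal or for pooled animals, so the p-values reflect only how much these libraries vary.

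Complex II (succinate dehydrogenase) feeds electrons from the citric acid cycle into the ubiquinone pool, complex III passes them to cytochrome c, and complex IV (cytochrome c oxidase) passes them to oxygen. Complexes III and IV pump protons across the inner mitochondrial membrane, and complex V (ATP synthase) lets them flow back to make ATP. Apart from complex II, each complex is built from subunits of both genomes, and the few encoded by mitochondrial DNA are made inside the organelle and are not among the members. Neurons draw most of their ATP from this pathway, and several complex IV subunits exist as a widely expressed form and a form restricted to muscle, lung or testis.

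Of all reads counted to genes (18408782 to 31631137 per library), 1.26% to 1.64% fell on members in IP libraries, 0.847% in input RNA and 0.680% in unbound RNA. Summed levels of 6 indirect-pathway markers (Drd2, Adora2a, Penk, Gpr6, Sp9 and Ptprm) were 6981 to 12284 CPM in the 8 IP libraries (CPM, read counts scaled to a common total of gene reads), against 1716 in input and 1287 in unbound RNA. Direct-pathway markers summed to 75.5 to 146 CPM in the IP libraries against 827 and 639, and oligodendrocyte markers to 197 to 446 against 4637 and 4861. Astrocyte markers lay at 44.4 to 145 against 1968 and 1822, and markers of cholinergic interneurons at 15.8 to 41.0 against 57.9 and 39.5. The IP libraries were sequenced in lanes 4, 6 and 7 and the input and unbound libraries in lane 1, so lane and fraction cannot be told apart. In bulk RNA, fewer cells of a type and less RNA per cell cannot be told apart either.

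Promoter windows of the RefSeq table (build GRCm38.p6, 250 bases before to 50 after the gene start) were found for 38 members. Entries were missing for Atp5a1, Cox4i1, Cox4i2, Cox6a2, Cox6c, Cox8c, Cyc1, Sdhc, Uqcrb, Uqcrc2 and Uqcrq. Exact matches on either strand were searched for 3 short motifs known from genes of the respiratory chain: GCGCATGCG, the core of the site of nuclear respiratory factor 1 (NRF1), CCGGAAGT, an ETS site of the kind bound by GA-binding protein (GABPA), and AAGATGGCG, a site of YY1. Shown are 4 members, because they carry the NRF1 letters and stand for 4 parts of the pathway: Uqcr11 of complex III, the electron carrier Cycs, Cox6a1 of complex IV and Atp5k of complex V. Each run covers 220 bases before to 30 after the start, 5′ to 3′ on the gene's own strand, which is the minus strand for all 4, with matches in capitals. The positions are chr10:80406792-80407041 for Uqcr11, chr6:50566540-50566789 for Cycs, chr5:115348929-115349178 for Cox6a1 and chr5:108434370-108434619 for Atp5k.
Uqcr11: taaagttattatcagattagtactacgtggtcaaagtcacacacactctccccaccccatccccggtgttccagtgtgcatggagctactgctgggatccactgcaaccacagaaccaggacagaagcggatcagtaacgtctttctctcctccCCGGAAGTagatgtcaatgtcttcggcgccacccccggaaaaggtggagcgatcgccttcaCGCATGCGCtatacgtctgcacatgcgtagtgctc
Cycs: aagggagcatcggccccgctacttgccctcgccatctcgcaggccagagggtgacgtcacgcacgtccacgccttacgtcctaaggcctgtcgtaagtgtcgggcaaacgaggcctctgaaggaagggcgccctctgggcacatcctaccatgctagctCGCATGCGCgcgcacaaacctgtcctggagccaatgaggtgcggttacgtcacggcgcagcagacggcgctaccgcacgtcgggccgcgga
Cox6a1: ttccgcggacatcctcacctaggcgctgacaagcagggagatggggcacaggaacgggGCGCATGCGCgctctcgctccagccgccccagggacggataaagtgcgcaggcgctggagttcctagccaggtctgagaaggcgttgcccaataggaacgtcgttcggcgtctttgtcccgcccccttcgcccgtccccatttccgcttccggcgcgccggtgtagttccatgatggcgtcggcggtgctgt
Atp5k: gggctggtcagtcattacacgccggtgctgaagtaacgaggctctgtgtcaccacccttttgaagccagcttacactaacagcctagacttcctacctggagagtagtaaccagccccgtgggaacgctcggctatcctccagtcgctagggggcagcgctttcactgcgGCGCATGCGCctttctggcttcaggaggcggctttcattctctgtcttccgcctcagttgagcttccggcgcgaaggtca

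In Uqcr11 the ETS letters begin 66 bases before the start and the NRF1 letters 5 bases before it. In Cycs the NRF1 letters begin 61 bases before the start. In Cox6a1 and Atp5k the longer capitals are a forward and a reverse NRF1 match that overlap in all but 1 base, counted as 1 place, and they begin 162 and 50 bases before the start. Matches to different motifs did not overlap in any member. NRF1 letters were present in 7 of the 38 members with a window (18.4%), namely Uqcr11, Uqcrc1, Cycs, Cox6a1, Atp5g2, Atp5k and Atp5l, against 1.95% of all 27025 genes and 2.61% of the 17492 coding genes in the table. The ETS letters were present in 4 members (10.5%), Uqcr11, Uqcrh, Cox8a and Atp5h, against 4.31% of all genes and 5.69% of coding genes. YY1 letters were present in 3 members (7.89%), Atp5j, Atp5j2 and Atp5sl, against 1.64% of all genes and 2.14% of coding genes. None of the 3 windows of complex II held any of the motifs. A match describes the letters in the window and not binding.

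**Figure D1:**
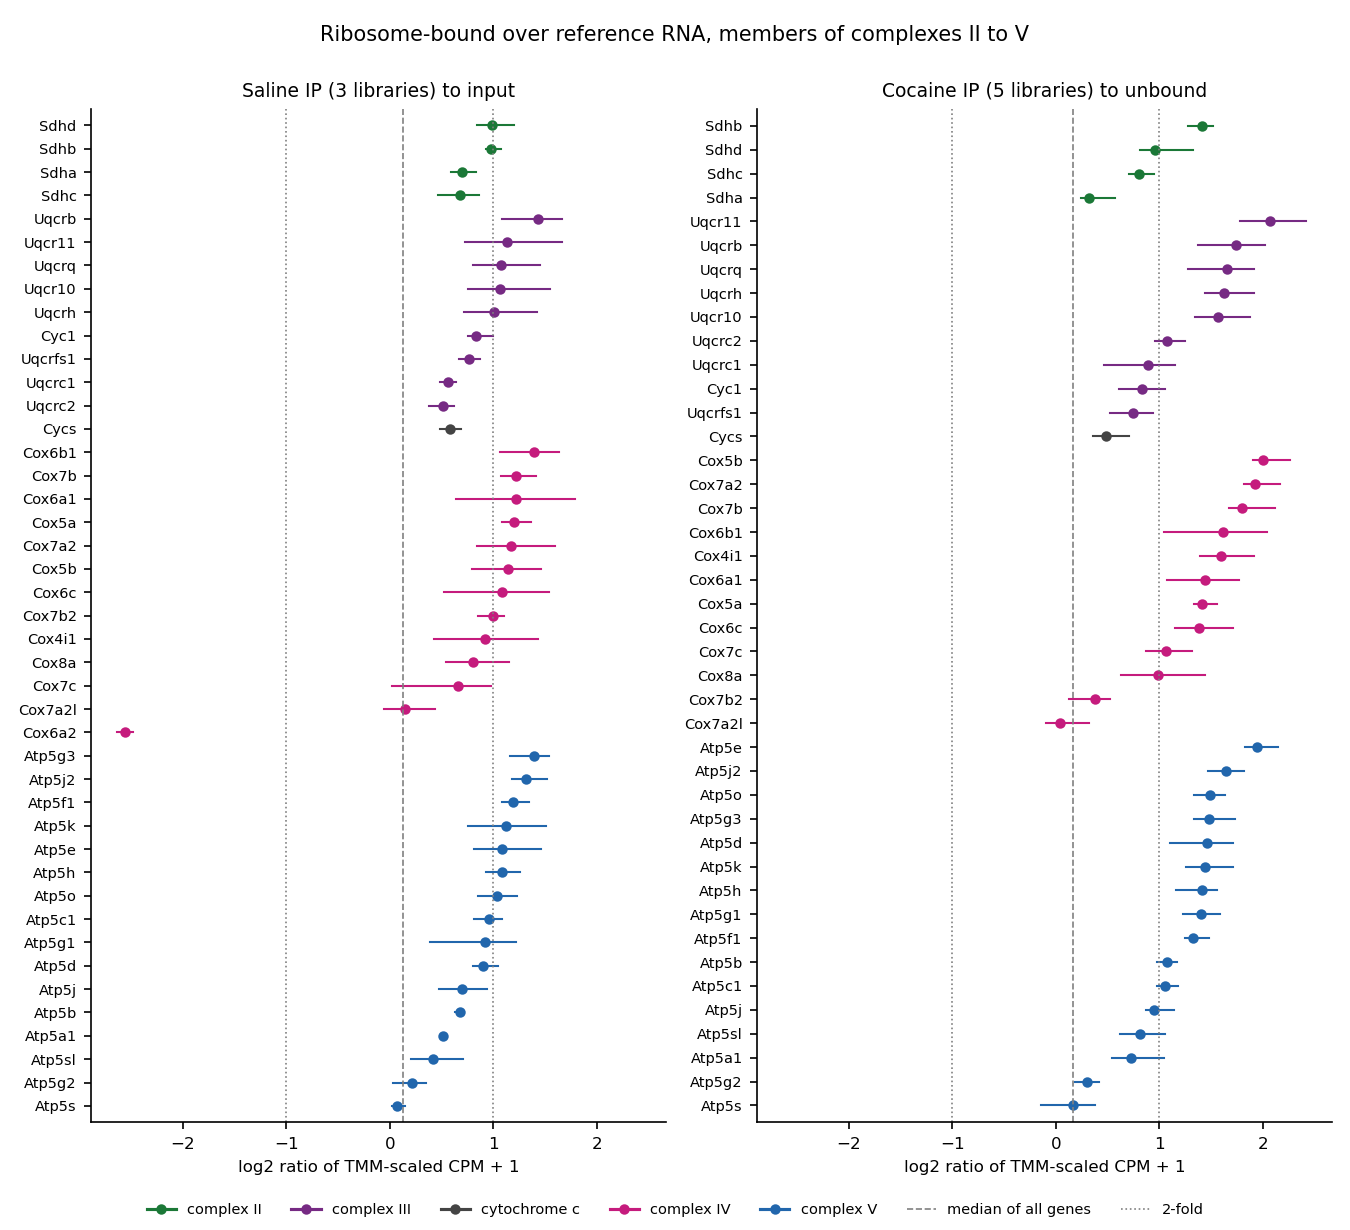
Mean log2 ratio of each compared member in saline IP libraries over the input library (left, n = 3) and in cocaine IP libraries over the unbound library (right, n = 5), with bars from the lowest to the highest IP library and colours for the complexes. Nearly all members lie to the right of the median of all genes (0.13 and 0.17); Cox6a2, at -2.56 against input with the prior of 1 CPM, lies apart on the left.

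Respiratory chain transcripts made up more of the reads in ribosome-bound RNA of D2 receptor cells than in the single input library and in the single unbound library, the RNA left after a pull-down. In CPM the members summed to 12558, 16430 and 13726 in saline IP 1, 2 and 4 against 8467 in the input, and to 13965, 15171, 13287, 13497 and 14886 in cocaine IP 1 to 5 against 6800 in the unbound library. Every IP library lay above its reference. Ratios between fractions were taken as log2 ratios of CPM plus 1 after scaling by the trimmed mean of M values (TMM), for genes that reached 1 CPM on average. Since each reference is 1 library, these ratios have no test.

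Against input, 43 members were compared and 42 had a mean log2 ratio above 0, as did 57.0% of all genes. Among the 42, Cox7b2 reached the mean of 1 CPM only through the IP libraries, and its ratio ran from 0.34 to 1.87 with other priors. The median ratio of the 43 members was 0.98 ± 0.23 (SD over IP libraries, n = 3), against 0.13 for all 12902 genes. At least 2-fold higher in every saline IP library were 7 members (16.3% of those compared), against 1.64% of all genes: Uqcrb, Cox5a, Cox6b1, Cox7b, Atp5f1, Atp5g3 and Atp5j2. At least 2-fold lower in every library was 1 member, Cox6a2, against 11.6% of all genes. Cox6a2 reached the mean of 1 CPM only through the input library, and Cox4i2, Cox6b2, Cox7a1 and Cox8b did not reach it, so nothing is read from this count. With scaling by library size alone, 0 members passed 2-fold upwards (0.539% of all genes did), and the median of all genes moved by more than 0.1 to -0.09. The members' median was then 0.75, with 40 of 43 above 0, against 43.8% of all genes. Without saline IP 1, 16 members passed, against 2.88% of all genes.

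Against unbound RNA, 42 members were compared and all of these had a mean log2 ratio above 0, as did 59.3% of all genes. The median was 1.40 ± 0.12 (SD, n = 5), against 0.17 for all 12643 genes. At least 2-fold higher in every cocaine IP library were 23 members (54.8%), against 3.78% of all genes, and 0 were 2-fold lower, against 9.74%. Scaled by library size alone, 18 members passed, against 1.95% of all genes. The members' median was then 1.21, with 40 of 42 above 0, against 49.4% of all genes. The 7 members higher against input were all among the 23. The ratio was larger against unbound RNA than against input in 36 of 42 members, and with the input library in place of the unbound one 6 members passed, against 1.08% of all genes. By rank among all genes, 23 members lay in the top 5% in each comparison, and 28 in the top 10%.

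Complex II had the lowest medians of the 4 complexes, with log2 ratios of 0.84 ± 0.08 relative to input (SD over 3 libraries) and 0.88 ± 0.13 relative to unbound RNA (SD over 5 libraries). Sdha, the flavoprotein that binds succinate, stood at 477, 407 and 386 CPM in saline IP 1, 2 and 4 and at 306 CPM in the input. In cocaine IP 1 to 5 it stood at 422, 397, 403, 420 and 517 CPM, against 394 in the unbound library. All saline values lay above the input, while the lowest cocaine value lay just above the unbound one, and after TMM scaling the ratios were 0.70 ± 0.13 and 0.32 ± 0.14. Sdhb, the iron-sulfur subunit, stood at 134, 143 and 128 CPM against 80.0 in the input, and at 122, 129, 112, 131 and 123 CPM against 52.4 in the unbound library. Its ratio of 1.41 ± 0.10 against unbound RNA was the highest of the complex, and Sdhb alone of the 4 genes was at least 2-fold higher in every cocaine IP library. Sdha and Sdhb form the catalytic head together, and their cocaine IP libraries did not overlap in this ratio (0.24 to 0.57 for Sdha and 1.28 to 1.52 for Sdhb). All cocaine IP ratios of a gene share the single unbound library, so their range leaves out the spread of that reference. Against input the ratios lay closer, at 0.70 for Sdha and 0.98 for Sdhb. Their transcripts also differ in length (2.9 and 1.142 kb), and its part was not tested.

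The membrane anchors of complex II were closer to each other. Sdhc stood at 281, 359 and 321 CPM in the saline IP libraries against 233 in the input, and at 305, 343, 308, 309 and 327 CPM in the cocaine IP libraries against 208 in the unbound library. Sdhd stood at 287, 354 and 291 CPM against 183 in the input, and at 311, 322, 293, 295 and 428 CPM against 192. Neither anchor overlapped its reference in any IP library. The ratios were 0.68 ± 0.20 and 0.80 ± 0.09 for Sdhc, and 0.99 ± 0.19 and 0.96 ± 0.22 for Sdhd. Cocaine IP 5 held the highest level of both Sdha and Sdhd.

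In complex III the small subunits had the larger ratios. Uqcrb, Uqcrh, Uqcrq, Uqcr10 and Uqcr11, small proteins around the catalytic core, had a median of 1.08 against input and 1.66 against unbound RNA, and all 5 were at least 2-fold higher in every cocaine IP library. The core proteins Uqcrc1 and Uqcrc2, which face the matrix, had 0.56 and 0.52 against input and 0.89 and 1.07 against unbound RNA. The subunits that carry electrons, Cyc1 (cytochrome c1) and Uqcrfs1 (the Rieske iron-sulfur protein), had 0.83 and 0.77 against input and 0.83 and 0.75 against unbound RNA. None of these 4 passed 2-fold in every library of either comparison. The complex as a whole had a median of 1.01 ± 0.36 (SD over 3 libraries) and 1.57 ± 0.24 (SD over 5 libraries).

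Uqcrb had the highest ratio to input of all members, at 1.43 ± 0.30. It stood at 150, 216 and 197 CPM in saline IP 1, 2 and 4 against 80.3 in the input, and at 162, 224, 200, 191 and 250 CPM in cocaine IP 1 to 5 against 68.9 in the unbound library. Only 56.6% of the 50-base stretches of its transcript are unique among annotated transcripts. Its count therefore depends on how reads with several placements were treated. The same limit applies to all 18 of the 49 members under 90% unique. Among these are Atp5h (52.1%), Atp5f1 (61.3%), Atp5o (66.0%), Cox5a (68.0%), Cox7c (72.1%), Cox5b (74.1%) and Uqcrc2 (75.2%). The share of reads placed at several sites was 33.3% to 47.1% for IP, 31.1% for input and 25.9% for unbound RNA. Its part in the ratios was not tested. Uqcr11 had the highest ratio to unbound RNA, 2.07 ± 0.23, with 153, 183, 145, 143 and 122 CPM against 39.5. Against input the same gene stood at 127, 235 and 147 CPM against 87.2, a ratio of 1.13 ± 0.48 in which saline IP 2 lay well above the other libraries. Uqcrc1 stood at 66.7, 61.1 and 57.0 CPM against 48.5 in the input and at 59.8, 60.1, 50.9, 50.2 and 38.3 CPM against 31.1 in the unbound library.

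Uqcrc2, which had the lowest ratio of complex III to input, stood at 172, 148 and 174 CPM against 135, and at 190, 158, 159, 193 and 161 CPM in the cocaine IP libraries against 92.7. Uqcrfs1, which had the lowest ratio of the complex to unbound RNA, stood at 188, 171 and 196 CPM against 127, and at 211, 181, 153, 176 and 183 CPM against 122. Cyc1 stood at 89.7, 103 and 85.8 CPM against 60.4, and at 81.2, 96.5, 86.7, 90.1 and 109 CPM against 58.8. Every IP value of these 3 genes lay above its reference.

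Cytochrome c, the soluble carrier between complexes III and IV, had lower ratios than the median of either. Cycs stood at 42.7, 44.5 and 38.3 CPM in the saline IP libraries and 32.4 in the input, and at 38.0, 45.3, 36.2, 38.0 and 41.6 CPM in the cocaine IP libraries and 32.2 in the unbound library. The ratio of Cycs was 0.58 ± 0.10 relative to input and 0.48 ± 0.14 relative to unbound RNA, and the groups did not overlap their reference. Its transcript shares 50-base stretches with 76 other annotated genes, and 71.5% of the stretches are unique.

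Complex IV split into widely expressed subunits with high ratios and tissue isoforms at trace level. The 10 widely expressed subunits (Cox4i1, Cox5a, Cox5b, Cox6a1, Cox6b1, Cox6c, Cox7a2, Cox7b, Cox7c and Cox8a) had medians of 1.16 against input and 1.52 against unbound RNA. Of these, 3 were at least 2-fold higher in every saline IP library and 8 in every cocaine IP library, all but Cox7c and Cox8a. Over all compared members of the complex the medians were 1.09 ± 0.39 (SD, n = 3, 13 genes) and 1.43 ± 0.18 (SD, n = 5, 12 genes). Cox4i1, the regulatory subunit of the widely expressed enzyme, stood at 551, 1075 and 734 CPM in saline IP 1, 2 and 4 against 470 in the input, a ratio of 0.92 ± 0.51. In cocaine IP 1 to 5 it stood at 694, 902, 780, 701 and 651 CPM against 280, a ratio of 1.60 ± 0.21. Saline IP 2 was the highest of the saline libraries and saline IP 1 the lowest.

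Cox6b1, at 1.39 ± 0.29, had the highest ratio to input within the complex. It stood at 406, 583 and 514 CPM against 221, and at 484, 551, 436, 401 and 287 CPM against 157 in the unbound library. Cox5b, a zinc-binding subunit on the matrix side, had the highest ratio to unbound RNA, 2.0 ± 0.15, with 176, 214, 176, 175 and 175 CPM against 51.4. Its levels in the saline IP libraries were 151, 232 and 186 CPM against 98.8 in the input. Of the cocaine IP libraries, 4 lay together and cocaine IP 2 lay above them.

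Cox6a1 stood at 453, 975 and 651 CPM in the saline IP libraries against 332, and at 616, 812, 630, 514 and 793 CPM in the cocaine IP libraries against 279. Cox7a2 stood at 297, 486 and 334 CPM against 189, and at 365, 414, 347, 332 and 352 CPM against 108, a ratio of 1.93 ± 0.14 to unbound RNA. Cox8a stood at 250, 368 and 267 CPM against 195, and at 294, 331, 230, 193 and 213 CPM against 143. For each of these 3 small subunits the lowest IP library still exceeded its reference, and saline IP 2 was the highest saline library.

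Cox7a2l, a factor that helps complexes III and IV join into supercomplexes, did not share the enrichment. It stood at 97.2, 132 and 100 CPM in the saline IP libraries and 115 in the input, and at 107, 116, 106, 103 and 140 CPM in the cocaine IP libraries and 126 in the unbound library. The input and unbound values lay inside the range of the IP libraries. The ratios, 0.14 ± 0.26 and 0.04 ± 0.18, were close to those of all genes, and both were below 0 when only library size was used (-0.09 and -0.15).

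The tissue isoforms of complex IV were the exception among the members, and most stood higher in the references than in ribosome-bound RNA. Cox6a2, the heart and muscle form of subunit 6a (chr7:128205435-128206387 on GRCm38, minus strand), stood at 0.13, 0.24 and 0.18 CPM in saline IP 1, 2 and 4, against 6.79 CPM in the input. In cocaine IP 1 to 5 it stood at 0.32, 0.39, 0.25, 0.12 and 0.17 CPM, against 4.74 in the unbound library. From the summed counts, 16 against 125 reads, the input level was 37.3 times the saline IP level (95% interval 22.1 to 67.3), and from 36 against 99 reads the unbound level was 18.4 times the cocaine IP level (12.4 to 27.7). These exact intervals cover counting error only. Exons of Cox6a2 also overlap Itgad on the other strand, and the strand setting of the counting is not given in the sources used here. The log2 ratio of Cox6a2 to input depends on the prior, and was -2.56 with 1 CPM, -4.41 with 0.1 CPM and -1.09 with 5 CPM. Cox6a2 is also known from parvalbumin-positive interneurons of the brain, and 6 markers of GABA interneurons summed to 6.40 to 16.1 CPM in IP libraries, against 246 CPM in input RNA and 220 CPM in unbound RNA; their part in the result was not tested.

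Other restricted isoforms had few reads. Cox4i2, the lung form of subunit 4 that brain pericytes also use, had 6 reads over the saline IP libraries against 16 in the input and 3 over the cocaine IP libraries against 13 in the unbound library. Per library it lay at 0, 0.034 and 0.18 CPM after saline and at 0.032, 0.036, 0.032, 0 and 0 CPM after cocaine, against 0.87 in input and 0.62 in unbound RNA. The 6 endothelial and mural markers summed to 0.80 to 2.79 CPM in the IP libraries against 19.4 and 15.1, and their part was not tested. Cox7a1, the muscle form of subunit 7a, stood at 0.19, 0.10 and 0.44 CPM against 1.25 in the input, and at 0.38, 0.36, 0.13, 0.12 and 0.17 CPM against 1.25 in the unbound library. The counts put its reference level at 5.23 times (2.77 to 9.94) the saline IP level and at 5.27 times (3.03 to 9.09) the cocaine IP level.

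Cox8b, the muscle form of subunit 8, had 1 read in the saline IP libraries (0.032 CPM in saline IP 1, 0 in the others) and 0 in all 5 cocaine IP libraries, against 5 reads in the input (0.27 CPM) and 4 in the unbound library (0.19 CPM). With so few reads the exact 95% interval of the fold between unbound RNA and cocaine IP begins at 4.42 and has no upper end. Cox6b2, a testis form, had 17 reads after saline against 43 in the input and 42 after cocaine against 23 in the unbound library, which put the reference 12.1 times (6.75 to 22.6) and 3.66 times (2.10 to 6.23) higher. Cox8c, also a testis form, had 3 reads or fewer in every fraction and was at the limit of detection. Cox7b2, a testis form of subunit 7b, went the other way against input. It had 159 reads over the saline IP libraries against 9 in the input, 2.05, 1.84 and 1.5 CPM against 0.49, while against unbound RNA (1.84, 1.11, 1.80, 1.41 and 1.65 CPM against 1.1) the counting interval of the fold included 1.

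**Figure D2:**
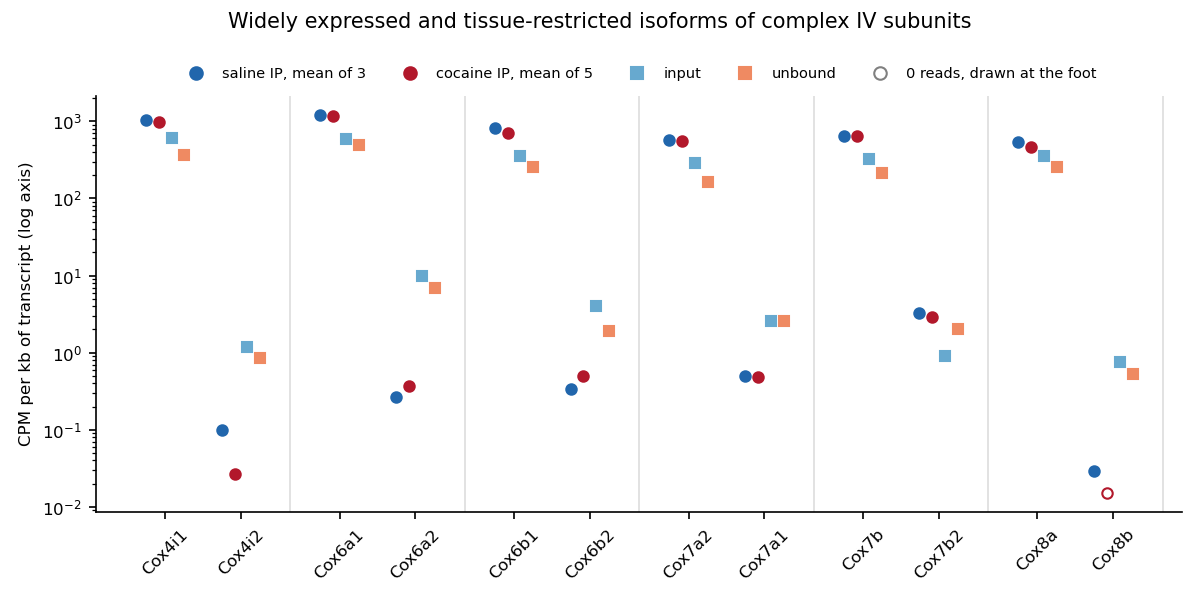
Level per kb of transcript (CPM per kb, log axis) of 6 widely expressed complex IV subunits and of the tissue-restricted isoform of each, as the mean of 3 saline IP and of 5 cocaine IP libraries and in the single input and unbound libraries. The widely expressed forms lie at 163 to 1214 CPM per kb in every fraction and the restricted ones below 10, with Cox6a2 at 9.99 in the input and 0.27 in saline IP.

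Per kb of transcript, the restricted form made up 0.02% of the Cox6a1 and Cox6a2 pair in saline IP and 1.69% in the input. For Cox4i1 and Cox4i2 the shares of Cox4i2 were 0.009% and 0.19%. For Cox7a2 and Cox7a1 the shares of Cox7a1 were 0.09% and 0.89%, and for Cox7b and Cox7b2 those of Cox7b2 were 0.51% and 0.28%. In none of the 4 fractions did a restricted form reach more than 1.69% of its pair.

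Complex V had medians of 0.94 ± 0.19 (SD, n = 3, 16 genes) against input and 1.37 ± 0.12 (SD, n = 5, 16 genes) against unbound RNA. Every IP library passed 2-fold for 3 members in the first comparison and for 9 in the second. The F1 head, which makes ATP, had ratios from 0.52 (Atp5a1) to 1.09 (Atp5e) against input and from 0.73 (Atp5a1) to 1.94 (Atp5e) against unbound RNA. Atp5a1, the alpha subunit, stood at 1041, 978 and 977 CPM in the saline IP libraries against 819, and at 1016, 923, 991, 1156 and 1360 CPM in the cocaine IP libraries against 747. Atp5b, the catalytic beta subunit, stood at 1513, 1389 and 1470 CPM against 1067, and at 1755, 1547, 1669, 1813 and 1718 CPM against 925. For both genes every IP library exceeded its reference, and the ratios to input varied little between libraries (0.52 ± 0.02 and 0.68 ± 0.05).

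Atp5e, the small epsilon subunit of the F1 head, had the highest ratio of complex V to unbound RNA, with 298, 306, 250, 256 and 255 CPM against 80.3. In the saline IP libraries it stood at 257, 390 and 277 CPM against 167. The alpha and beta genes and the epsilon gene, whose proteins sit in one head, did not overlap in the ratios of the cocaine IP libraries (at most 1.04 for Atp5a1 and 1.17 for Atp5b, at least 1.83 for Atp5e). These ratios too share the single unbound library, whose spread is not known. Against input the ratios lay closer, at 0.52 for Atp5a1, 0.68 for Atp5b and 1.09 for Atp5e. Their transcripts also differ in length (2.674, 1.916 and 0.421 kb), and its part was not tested.

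The c subunits form the rotating ring of the membrane part and are made from 3 genes that encode the same mature protein. Atp5g3 was the most abundant of them, at 1160, 1459 and 1379 CPM against 594 in the input, and at 1162, 1260, 1136, 1195 and 1504 CPM against 511 in the unbound library. Its ratio of 1.39 ± 0.20 was the highest of complex V to input, and after TMM scaling all IP libraries lay at least 2-fold above the reference in both comparisons. Atp5g1 stood at 20.8, 36.6 and 34.5 CPM against 18.0, and at 34.7, 36.1, 30.4, 32.6 and 29.1 CPM against 13.4, with ratios of 0.92 ± 0.46 and 1.40 ± 0.14. Atp5g2 lay near 1 CPM everywhere (0.99, 1.26 and 1.42 against 1.09, and 1.36, 1.40, 1.07, 1.25 and 1.22 against 0.96). Of the 50-base stretches of its transcript only 12.6% are unique, and reads that fit several places are usually dropped in this kind of counting, so the Atp5g2 level cannot be read as the level of the gene. Per kb of transcript, Atp5g3 stood at 1843 ± 214 CPM in saline IP and Atp5g1 at 6.50 ± 1.81 (SD, n = 3). The gap depends on the annotated lengths used, 0.723 kb for Atp5g3 and 4.715 kb for Atp5g1. The Atp5g1 transcript shares 50-base stretches with 366 other annotated genes, and 88.4% of its stretches are unique.

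The peripheral stalk, which holds the head still, comprises Atp5f1, Atp5h, Atp5j and Atp5o. Their ratios were 1.19, 1.09, 0.70 and 1.03 against input and 1.33, 1.41, 0.95 and 1.5 against unbound RNA. Atp5j was the lowest of the 4 in both comparisons, and it shares exon sequence with Gabpa on the other strand. Such overlaps were not particular to it: Atp5f1 overlaps Wdr77 and Gm42890, and Atp5o overlaps D430001F17Rik and Gm15976, also on the other strand. The strand setting of the counting is not given in the sources used here, so reads of these overlapping genes cannot be told apart. Atp5j2 and Atp5k, small subunits of the membrane part, had 1.31 and 1.12 against input and 1.65 and 1.44 against unbound RNA. Atp5l, a further subunit of this part, had 0.54 to 1.31 CPM in the IP libraries and did not reach a mean of 1 CPM in either comparison; 15.2% of its 50-base stretches are unique.

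Atp5s and Atp5sl carry ATP synthase symbols but encode factors that are not subunits of the enzyme. Atp5s had the lowest ratio of the complex V rows in both comparisons. It stood at 21, 20.1 and 21.8 CPM against 23.5 in the input, and at 22.3, 24.0, 22.2, 20.5 and 17.1 CPM against 21.5, with ratios of 0.07 ± 0.07 and 0.16 ± 0.19. Atp5sl had 0.41 ± 0.27 and 0.82 ± 0.16. Without these rows the medians of complex V were 1.0 ± 0.20 and 1.41 ± 0.11.

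**Figure D3:**
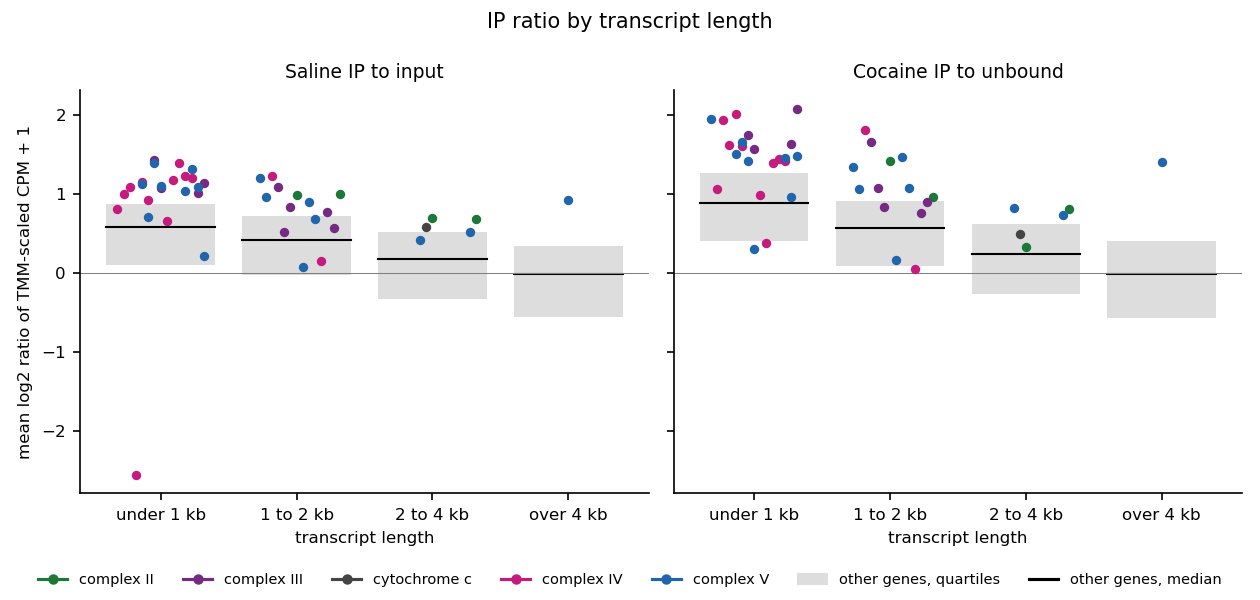
Mean log2 IP ratio of members (points, coloured by complex) by the length of their transcript, for saline IP over input (left) and cocaine IP over unbound (right), with the quartiles (grey boxes) and median (black lines) of all other genes of that length. Ratios of members and of other genes are both higher for shorter transcripts, and most members lie above the median of other genes of their own length class.

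Shorter transcripts had higher ratios, within the members and among all genes. Among transcripts under 1 kb, 23 members had a median log2 ratio of 1.09 to input, against 0.58 for 484 other genes of that length, and 22 members had 1.49 to unbound RNA, against 0.88 for 466 others. From 1 to 2 kb the medians were 0.87 for 14 members and 0.42 for other genes against input, and 1.07 and 0.56 against unbound RNA. The 5 members of 2 to 4 kb (Sdha, Sdhc, Cycs, Atp5a1 and Atp5sl) had 0.58 against 0.17, and 0.73 against 0.23. Over the 40 members of at least 5 CPM other than Cox6a2, the ratio and the log2 length had a Pearson r of -0.55 and a Spearman rho of -0.62 against input, and -0.59 and -0.63 against unbound RNA. Over all genes the values were -0.20 and -0.28, and -0.27 and -0.34. These are descriptions across genes, which share their libraries and a single reference library and are not independent replicates.

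**Figure D4:**
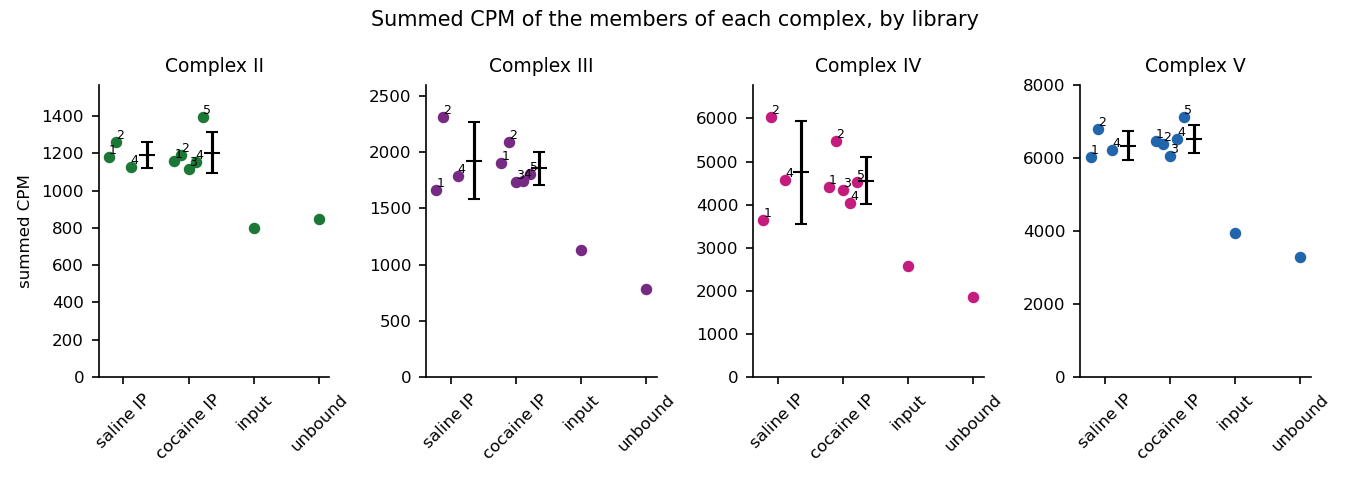
Summed CPM of the members of complexes II, III, IV and V in each library (points, with IP libraries numbered by replicate) and the mean ± SD of the 3 saline IP and 5 cocaine IP libraries (black). All IP libraries lie above the input and unbound libraries, and saline IP 2 is the highest saline library for each complex.

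The IP libraries differed among themselves, and they did so most in complex IV. Its members summed to 3654, 6033 and 4563 CPM in saline IP 1, 2 and 4, and to 4415, 5470, 4337, 4047 and 4526 CPM in cocaine IP 1 to 5. Complex III followed the same order of saline libraries (1666, 2314 and 1792 CPM), while complex II (1179, 1264 and 1126 CPM) and complex V (6015, 6775 and 6206 CPM) varied less. Over 40 members, saline IP 2 had the highest ratio to input for 32 and saline IP 1 the lowest for 28. Among the cocaine libraries, cocaine IP 2 was the highest for 26.

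This spread was larger in members under 1 kb than in those of 1 to 2 kb. Deviations of log2 CPM were taken from the mean over all IP libraries, saline and cocaine together. For members under 1 kb, the median deviation was -0.27 in saline IP 1, 0.38 in saline IP 2 and 0.23 in cocaine IP 2. It lay between -0.11 and 0.003 in the other 5 IP libraries. For 364 other genes under 1 kb the deviations were -0.10, 0.25 and 0.15 in the same 3 libraries. In members of 1 to 2 kb they were -0.05, 0.15 and 0.09, and in the 5 members of 2 to 4 kb -0.04, 0.14 and 0.13. The 1 member over 4 kb, Atp5g1, had -0.60, 0.22 and 0.22, so within the members the spread did not keep falling with length. For other genes of 2 to 4 kb the deviations were 0.02, 0.02 and 0.03. Saline IP 1 also had the largest share of reads placed at several sites, 47.1%, against 33.3% to 42.3% in the other IP libraries; its part in the spread was not tested.

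Set side by side per kb of transcript, levels in saline IP ran from 1843 ± 214 CPM per kb for Atp5g3 (SD, n = 3) down to 0.030 for Cox8b, with a median of 204 over the members. Next below Atp5g3 came Atp5k (1234 ± 307), Cox6a1 (1214 ± 462), Cox6c (1151 ± 366) and Cox4i1 (1028 ± 348), which did not differ beyond their spread. In complex III the order began with Uqcrh (763 ± 197) and Uqcr10 (702 ± 209), and the core proteins Uqcrc2 (86.9 ± 7.70) and Uqcrc1 (37.3 ± 2.92) stood lower. The 4 subunits of complex II lay between 101 and 252 CPM per kb, with Sdhd the highest and Sdhc the lowest. Cycs stood at 13.4 ± 1.02. With the summed length of all annotated exons in place of the main transcript the median fell to 103 CPM per kb, and Cox6a1, Atp5k and Cox6b1 came before Atp5g3.

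Other genes of the pathway had lower median ratios than the subunits, a difference given without a test. Assembly factors of complex IV had median log2 ratios of 0.57 against input (22 of the 23 listed genes found in the counts, 0 at least 2-fold higher in every library) and 0.63 against unbound RNA (22 genes, 4 higher), running in the saline comparison from Coa5 (-0.29) to Cox14 (1.05). Assembly factors of complex II (4 genes) had 0.47 and 0.75, from Sdhaf3 (0.20) to Sdhaf4 (1.05), and those of complex III (6 genes) 0.61 and 0.78, from Ttc19 (0.23) to Uqcc2 (0.99). Among the 4 genes that assemble or inhibit complex V (0.60 and 0.96), Atpif1, the inhibitor of the reversed enzyme, had 1.37 against input and was at least 2-fold higher in every library of both comparisons, while Atpaf2 had 0.16. The carriers of ADP, ATP and phosphate with the VDAC pores had 0.65 and 0.86 (6 of 7 listed genes), from Vdac1 (0.45) to Slc25a5 (0.88), and 0 and 1 passed 2-fold.

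Citric acid cycle genes had 0.62 and 0.77 (12 of the 13 listed were compared), from Cs, citrate synthase, at 0.34 to Ogdh, a subunit of oxoglutarate dehydrogenase, at 0.82, with 0 and 1 at least 2-fold higher. The gene not compared, Suclg2, a subunit of succinate-CoA ligase, did not reach the mean of 1 CPM and stood at 0.38, 0.034 and 0.33 CPM in the saline IP libraries against 3.04 in the input, and at 0.13 to 0.89 CPM in the cocaine IP libraries against 3.97 in the unbound library. The 12 regulators of mitochondrial biogenesis had 0.16 and 0.30, close to all genes, from Pprc1 (-0.27) to Tfam (0.87), and 0 passed in either comparison. With scaling by library size alone the regulators' median against input was -0.06, while the medians of the other lists stayed above 0. Nrf1 itself encodes the factor for which the NRF1 letters are named. The gene stood at 12.5, 16.7 and 17.3 CPM in the saline IP libraries against 19.3 in the input. In cocaine IP 1 to 5 it stood at 15.5, 15.7, 17.9, 21.4 and 22.9 CPM against 21.2 in the unbound library. In unscaled CPM every saline library thus lay below its reference, while the cocaine libraries lay on both sides of theirs. As TMM scaling raises the ratios to input, the order may differ in TMM-scaled values.

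Members with and without a motif match in their window had overlapping ratios. The 12 compared members with any of the 3 motifs had a median of 0.91 against input (0.21 to 1.31) and 1.2 against unbound RNA (0.30 to 2.07). The 22 compared members whose window held none had 0.99 (0.07 to 1.39) and 1.41 (0.04 to 2.0). These medians are descriptions and were not compared by a test.

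No respiratory chain gene differed between cocaine and saline IP libraries after adjustment. In edgeR's quasi-likelihood test (two-sided, Benjamini-Hochberg adjustment over all 13800 genes tested, 8 IP libraries), 0 of 44 members tested passed an adjusted p of 0.05, against 0% of all genes, and the smallest adjusted p was 0.9998. At an unadjusted p under 0.05 stood 1 member (2.27% of those tested), against 2.14% of all genes, and the same member was the only one whose groups did not overlap (2.27% against 2.34%). Both shares are close to the background. The members' median log2 fold change was -0.03, against 0.01 for all genes, with 16 above and 28 below 0 and a range from -0.24 (Uqcrc1) to 0.23 (Atp5b).

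By complex, the median log2 fold changes were 0.02 for complex II, -0.03 for complex III, -0.04 for complex IV and -0.01 for complex V, and Cycs had -0.06. The 95% intervals limit how large a difference these libraries could hold: 42 of 44 lay within 1 log2 unit of 0 on both sides, and 33 within 0.5. The widest belonged to the low-count genes Cox7a1 (-1.43 to 1.35) and Atp5l (-0.68 to 1.08). A result of this kind does not show that the levels were equal. The members' median followed single libraries: it was -0.15 without saline IP 1 and 0.10 without saline IP 2, and with the sequencing lane as a covariate it was 0.07 with 32 of 44 members above 0. The cocaine libraries of lane 4 (numbers 3, 4 and 5) and of lane 6 (1 and 2) had mean log2 CPM over the members of 7.14 and 7.25; within lane 6 only saline IP 4 stood beside cocaine IP 1 and 2, and leaving out lane 4 gave a median of 0.04.

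The member with the smallest p was Atp5b, the catalytic subunit of ATP synthase (unadjusted p = 0.0346, edgeR adjusted p = 0.9998). In TMM-scaled CPM it stood at 1452 ± 49.1 (SD, n = 3) after saline and 1705 ± 84.4 (SD, n = 5) after cocaine, a log2 fold change of 0.23 with an SE of 0.10 and a 95% interval of 0.02 to 0.44. In unscaled CPM too, all 5 cocaine IP libraries (1547 to 1813) lay above all 3 saline IP libraries (1389 to 1513). The fold change stayed between 0.15 and 0.26 in the 17 alternatives computed for it, none of which brought an adjusted p under 0.05. In 11 of these 17 alternatives, 0 members had an unadjusted p under 0.05. Its partner in the F1 head, Atp5a1, had 0.13 (-0.15 to 0.41), and the 2 groups overlapped.

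In the other complexes the smallest p-values belonged to Sdhb, Uqcrc1 and Cox8a, and all their groups overlapped. Sdhb had a log2 fold change of -0.12 (95% interval -0.34 to 0.10), Uqcrc1 of -0.24 (-0.56 to 0.09) and Cox8a of -0.22 (-0.64 to 0.21). With the lane as a covariate, Uqcrc1 and Cox8a had positive values instead (0.06 and 0.22). Cox6a1 (-0.04), Cox4i1 (-0.07), Cox7a2 (-0.03) and Cox7a2l (0.07) lay near 0, and the widest of their intervals was that of Cox6a1 (-0.54 to 0.46). Atp5g3, the main gene of the c ring, had -0.08 (-0.36 to 0.19).

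**Figure D5:**
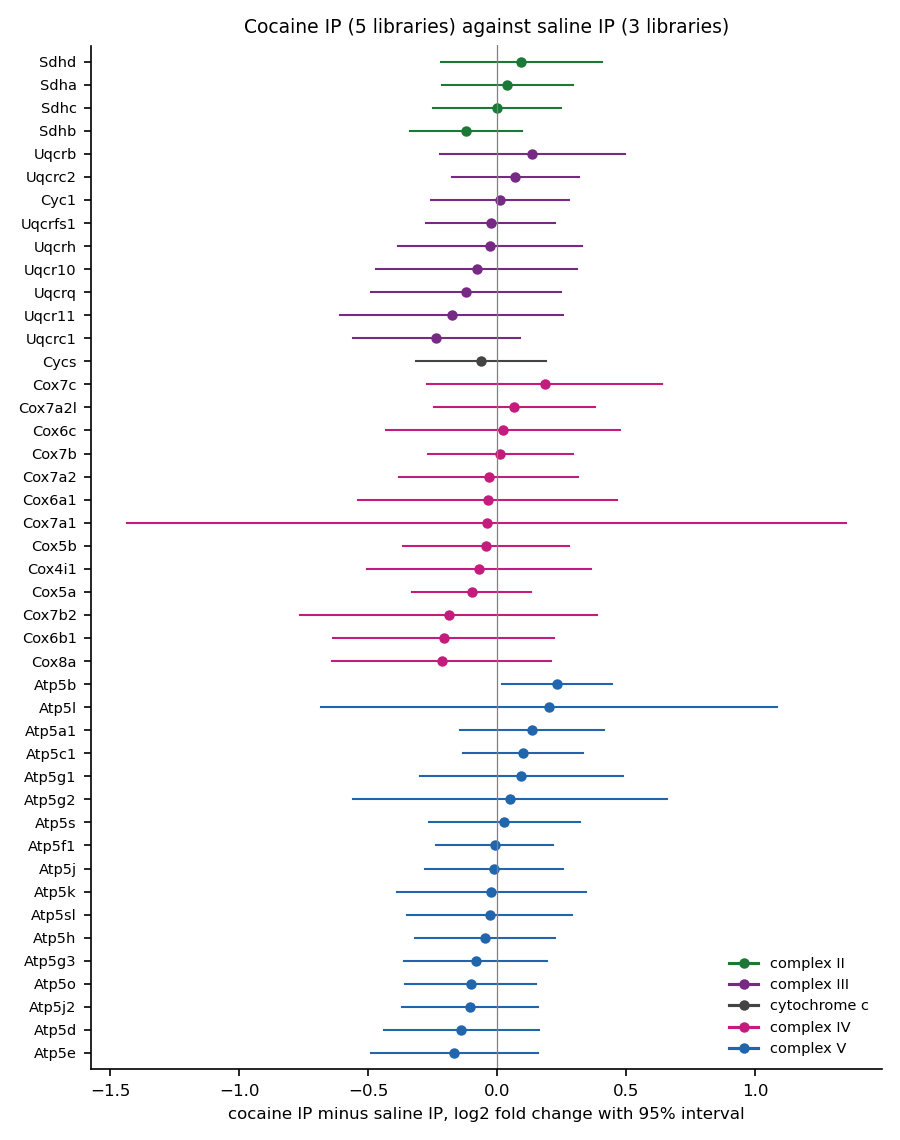
Log2 fold change of each tested member in cocaine IP (n = 5) against saline IP (n = 3) libraries, with the 95% interval of edgeR's quasi-likelihood fit and colours for the complexes. Only the interval of Atp5b (0.02 to 0.44) does not include 0, and no member passed after adjustment over 13800 genes.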

How the data were processed

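RNA was sequenced from 8 IP, 1 input and 1 unbound library. Per the submitters' processing notes, the tools were STAR 2.0.0e and HTSeq and the build was mm10; HTSeq's version, the annotation and the strand setting were not given in the sources used here. The deposited files hold the authors' raw read counts per gene symbol, and HTSeq's special counters were kept out of library sizes and tests. CPM were computed from these counts; 22975667 to 31631137 gene reads per IP library put 3 reads at 0.095 to 0.131 CPM. Titles gave the groups and descriptions the lanes.

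Ratios to the single input or unbound library are log2 ratios of TMM-scaled CPM plus 1, taken where the mean reached 1 CPM. Cocaine against saline was tested with edgeR 4.0.16 (R 4.3.3; quasi-likelihood, TMM, filterByExpr, Benjamini-Hochberg); the common biological coefficient of variation was 0.199. Lengths, uniqueness of 50-base stretches and exon overlaps come from GENCODE vM21 on GRCm38, and promoters from RefSeq. Intervals of summed counts are exact 95% intervals and cover counting error only. The alternatives were other scalings, priors and filters, the other reference library, each library left out, the lane as a covariate, DESeq2 1.42.0, and the replicate number as a block.

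The saline and cocaine IP libraries share the numbers 1, 2 and 4. Between same-numbered libraries, deviations from the group means correlated at 0.71, 0.63 and 0.32 (9618 genes of at least 5 CPM), so same-numbered libraries were treated as pairs in one alternative, although the meaning of a number is not in the labels. Some libraries with different numbers correlated too (saline IP 2 with cocaine IP 3 at 0.43, saline IP 4 with cocaine IP 3 at 0.22), and over the members the number 4 pair had 0.04. In simulated counts for the cocaine test on 13746 genes, calls recovered 19.4% of the genes given a 1.5-fold change, 71.6% at 2-fold and 97.0% at 3-fold, and 4 unchanged genes were called. In simulated saline IP to input ratios of 12131 genes, 69.4% of genes given a 3-fold change passed the 2-fold limit. Both simulations gave every gene the same spread between libraries. Neither held differences by lane, transcript length or replicate number, so the shares need not hold for the real libraries.

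Members, lists and role groups were chosen with earlier results of these data known. Given in every library are complex II, the catalytic or core members Uqcrc1, Uqcrfs1 and Cyc1, Cycs, the main and restricted forms of Cox4, Cox6a, Cox7a and Cox8, Cox7a2l, the alpha, beta and c subunits, and in each complex the members with the highest and lowest ratio and the smallest p. From other lists the highest and lowest are named, and Nrf1 was added for the motif shown. Other members are given by ranges.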

Additional observations from a re-analysis of the deposited data

Results flagged for a closer look

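Within the 5 cocaine IP libraries, the gap of the most extreme library to its nearest neighbour was set against the group's whole range. Of 42 members tested, 3 stood out. Chance alone gives about 1 in 20 such groups, so this count is close to chance. The share over all genes is not given here, and nothing about the members is read from the count. Sdha, the flavoprotein of succinate dehydrogenase, reached 517 CPM in cocaine IP 5, against 397 to 422 in the other 4 cocaine libraries. Sdhd, its membrane anchor, reached 428 CPM in the same library, against 293 to 322. The summed level of complex II followed at 1395 CPM in cocaine IP 5, against 1116 to 1191. Sdhb and Sdhc were not flagged there (123 and 327 CPM). This library also had the fewest gene reads, 22975667, and the lowest share of the ribosomal RNA gene Rn45s, 1.5% of gene reads against 4.67% to 7.30% in the other IP libraries; their part was not tested. Cox5b, a complex IV subunit, reached 214 CPM in cocaine IP 2, against 175 to 176 in the other cocaine libraries.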

How the results depend on the processing

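The count of members at least 2-fold higher in every saline IP library than in input was 7, against 1.64% of all genes. It was 0 with library size alone (0.539% of all genes) and 21 with the unbound library as the reference (5.98%). At a 1.5-fold limit it was 27, for which no share of all genes was computed. With 1 library left out it ranged from 7 to 16, the 16 without saline IP 1, against 2.48% to 2.88% of all genes. The members' median log2 ratio (0.98) was 0.75 with library size alone and 1.36 with the unbound reference, and 0.88 to 1.06 with 1 library left out. Against unbound RNA the count was 23 (3.78% of all genes), 6 with the input as the reference (1.08%), and 23 to 24 with 1 library left out. For these left-out settings no share of all genes was computed. The median (1.40) was 1.21 with library size alone, 1.07 with no filter on low counts and 0.90 with the input reference. The median level per kb (204) was 103 with the union of exons. In cocaine against saline, 0 members and 0 genes passed in any of 17 alternatives, and the members' median lay between -0.15 and 0.10. Signs turned for Uqcrc1 (0.058), Cycs (0.11) and Cox8a (0.22) with lane as a covariate, and for Cox8a (0.083) without lane 4. With the replicate block the members' median was -0.003 and 0 members passed; 903 genes stood at an unadjusted p under 0.05 (smallest adjusted p = 0.0599 in edgeR), against 141 in the same 6 libraries unblocked, and the block changed no call. Depth limits Cox8b, Cox8c and Cox4i2, which have few reads. Causes were not tested.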
